A study of Mus musculus with 2 samples.

Results

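The S100 genes encode small calcium-binding proteins. Of the 32285 genes in the count tables, 17 belonged to the S100 family, and 9 of these, S100a1, S100a4, S100a6, S100a8, S100a9, S100a10, S100a11, S100a13 and S100b, were followed here, chosen by their symbols. They were described in 2 single-cell RNA libraries of the temporomandibular joint (TMJ), the joint between jaw and skull, across cell types that were named from other genes. The question was in which cells each S100 gene was measured, how far S100a8 and S100a9 were also present in droplets of cells that should lack them, and where the libraries differed.

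S100 proteins carry a pair of EF-hand motifs that bind calcium, and most of them work as dimers. Inside cells they bind annexins, cytoskeletal proteins and enzymes when calcium rises. S100a8 and S100a9 form the heterodimer calprotectin, the most abundant protein of the neutrophil cytosol, which sequesters zinc and manganese and, once released, acts on the receptors Tlr4 and Ager (RAGE). S100b is the classical S100 gene of glia and is also used as a marker of cartilage. S100a10 forms a tetramer with Anxa2 at the plasma membrane, and S100a11 binds Anxa1. S100a4 acts on non-muscle myosin and cell motility, S100a6 is a calcium sensor of stromal and dividing cells, S100a13 takes part in the release of growth factors that lack a signal peptide, and S100a1 regulates calcium cycling in muscle.

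Both libraries came from female C57BL/6 mice that had received complete Freund's adjuvant (CFA), an emulsion used to inflame a joint, in the TMJ. The WT library came from mice without the mutation, and the Prox1 mutant library from mice heterozygous for Prox1 (Prox1+/−), the transcription factor that specifies lymphatic endothelium. The sample records give an age of 8 to 10 weeks. The number of mice behind each library is not given in the sources used here, and each genotype had 1 library, so no value has a replicate error and no difference between genotypes was tested. The intervals given are 95% intervals for counting error only.

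The WT library held 53517206 unique molecular identifiers (UMIs, 1 for each captured transcript) over 5709 barcodes and the mutant library 62446987 over 7846. Of these barcodes, 4352 and 5757 were kept as cells, with a median of 6997 and 4848 UMIs. Only 10 barcodes occurred in both libraries, 4 of them among the kept cells. Prox1 itself stood at 11.6 counts per 1000000 UMIs (CPM, 10.7 to 12.6) in the WT cells and at 5.80 CPM (5.18 to 6.47) in the mutant cells. Both values are totals over all kept cells and depend on which cells each library holds. Clustering without the S100 genes gave 45 clusters, of which 33 received a name from their markers, over 22 cell types. A type name stands here for cells like that type, so that "mature neutrophils" are the cells of clusters with mature neutrophil markers. The markers of joint tissue were present: Prg4, which encodes lubricin, was among the leading genes of a mesenchymal cluster, and Col2a1 led the chondrocytes. No cluster was named lymphatic endothelium or muscle fibre. Unnamed clusters held 322 WT cells (7.40%) and 2022 mutant cells (35.1%), so any count of cells by type leaves out far more of the mutant library. In 6 clusters, all among the unnamed, under 5% of the cells came from 1 of the libraries, and the largest of them held 14 WT and 703 mutant cells.

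Of the 9 members, 8 lie in a stretch of 3054 kb on mouse chromosome 3 (GRCm38 coordinates), the S100 cluster. S100a1 (90511034 to 90514392, minus strand) and S100a13 (90514435 to 90524581, plus strand) start next to each other and are read in opposite directions. S100a4 (90603771 to 90606045) and S100a6 (90612882 to 90624181) follow on the plus strand with 6.84 kb between them, then S100a8 (90668978 to 90670035, plus strand) and S100a9 (90692632 to 90695721, minus strand) with 22.6 kb between them. S100a11 (93520488 to 93526287) and S100a10 (93555080 to 93564643) lie further along. S100b lies on chromosome 10 from 76253853 to 76261159. S100a4 overlaps the gene model Gm42674 on its own strand, so reads in the shared part may be assigned to either or to none. S100b overlaps Dip2a, which lies on the opposite strand.

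The promoters of S100a8 and S100a9 are shown because most of the results turn on this pair, whose genes are read from opposite strands. Their levels ran together across the cell types (r = 1.0 over 26 points). These points include types that should lack both genes, so the value does not describe expression alone. Each window runs from 250 bases before to 50 bases after the RefSeq start on GRCm38.p6, 5′ to 3′ on the gene's own strand. Capitals mark the letters TTGCNNAA, a C/EBP motif, GAGGAA, the core of the PU.1 motif, and TATAAA, the TATA box, searched on both strands.
S100a8, chr3:90668821-90669120, plus strand: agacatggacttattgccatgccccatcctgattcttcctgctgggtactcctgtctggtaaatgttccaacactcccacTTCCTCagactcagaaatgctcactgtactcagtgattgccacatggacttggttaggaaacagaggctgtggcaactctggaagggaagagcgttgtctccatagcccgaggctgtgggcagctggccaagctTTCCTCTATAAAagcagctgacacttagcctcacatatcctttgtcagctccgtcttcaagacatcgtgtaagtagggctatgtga
S100a9, chr3:90695672-90695971, minus strand: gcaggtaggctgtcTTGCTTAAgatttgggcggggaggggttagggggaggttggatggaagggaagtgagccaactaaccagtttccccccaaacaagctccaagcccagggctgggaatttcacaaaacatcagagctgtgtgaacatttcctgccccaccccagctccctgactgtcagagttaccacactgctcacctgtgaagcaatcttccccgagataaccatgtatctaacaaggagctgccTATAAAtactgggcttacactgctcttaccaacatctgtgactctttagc

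The S100a8 window held GAGGAA on the opposite strand, seen as TTCCTC, at bases 81 to 86 and 215 to 220, and TATAAA directly after the second, at bases 221 to 226. The S100a9 window held TTGCTTAA at bases 15 to 22 and TATAAA at bases 251 to 256, which begins at the annotated start. TTGCNNAA occurred in 10.8% of 32851 promoter windows of this length, GAGGAA in 28.3% and TATAAA in 13.6%. Of the 9 members, 8 matched a window, and no window was matched for S100a10. S100a4 held TATAAA at bases 220 to 225 and TTCCTC at 270 to 275, and S100a11 held GAGGAA at bases 98 to 103. The windows of S100a1, S100a6, S100a13 and S100b held none of these letters. These are matches of letters and not measured binding sites.

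S100a8 and S100a9 were by far the most abundant members. Over all kept cells the WT library gave 5079 CPM of S100a8 and 5911 CPM of S100a9, and the mutant library 8339 and 10239 CPM. S100a6 followed at 1528 and 1361 CPM, then S100a11 at 657 and 483, S100a10 at 497 and 334, S100a4 at 236 and 256, S100a13 at 132 and 96.4, S100a1 at 74.8 and 46.5, and S100b at 14 and 10.2 CPM. Each captured transcript counts once whatever its length, so these levels need no scaling by length. These totals depend on which cells each library holds.

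Immature neutrophils, named from Ngp, Camp, Ltf, Lcn2 and other granule genes, held the highest levels of both genes. In the 102 WT cells S100a8 reached 94722 CPM (94242 to 95205), and in the 124 mutant cells 112383 CPM (111925 to 112842). S100a9 reached 108868 CPM (108353 to 109384) and 137052 CPM (136547 to 137558). Together they made up 20.4% of all UMIs of these cells in WT and 24.9% in the mutant, and up to 34.1% and 39.4% of the UMIs of a single cell. The median immature neutrophil held 2931 UMIs of the pair in WT and 3744 in the mutant, and over the central 80% of cells the sum ran from 1766 to 4787 and from 2599 to 6529.

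Mature neutrophils, named from Retnlg, Mmp8, Cxcr2, Csf3r and other genes, came next. S100a8 stood at 44357 CPM (43932 to 44785) in 211 WT cells and at 58116 CPM (57727 to 58508) in 211 mutant cells, and S100a9 at 55443 CPM (54967 to 55921) and 77577 CPM (77127 to 78029). The cells spread far more widely than the immature ones. The sum of both genes had a median of 106 UMIs per cell in WT and 494 in the mutant, and over the central 80% of cells it ran from 2 to 1294 and from 5 to 2457. The spread followed the 2 clusters of which this type consists. In the cluster led by Retnlg (85 WT and 110 mutant cells) S100a8 stood at 67127 and 78856 CPM, and the median cell held 838 and 1466 UMIs of the pair. In the cluster led by Il1f9 (126 and 101 cells) S100a8 stood at 9803 and 13205 CPM, and the median cell held 15 and 23 UMIs.

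S100a9 exceeded S100a8 in most neutrophils. S100a8 was the higher of the pair in 7.84% of the immature cells in WT and 4.84% in the mutant, and in 23.7% and 11.8% of the mature cells. The ratio of S100a8 to S100a9 UMIs was 0.870 and 0.820 in immature and 0.80 and 0.749 in mature neutrophils. Across cells of one type and library, the log2 levels of both genes correlated with r from 0.88 to 0.92 (Pearson, 102 to 211 cells that share a library and depth).

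Most of the transcripts of the pair lay in few cells. Immature neutrophils were 2.34% of the kept WT cells and held 60.7% of all S100a8 UMIs, and mature neutrophils, 4.85% of the cells, held 16.9%. In the mutant these types were 2.15% and 3.67% of the cells and held 51.1% and 18.8%. The unnamed clusters held 9.74% in WT and 20.1% in the mutant, most of it in a cluster that carried neutrophil and C1q macrophage markers together (16 WT and 199 mutant cells), whose median cell held 3068 and 273 UMIs of both genes. Whether those droplets held cells of both types was not tested.

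**Figure D1:**
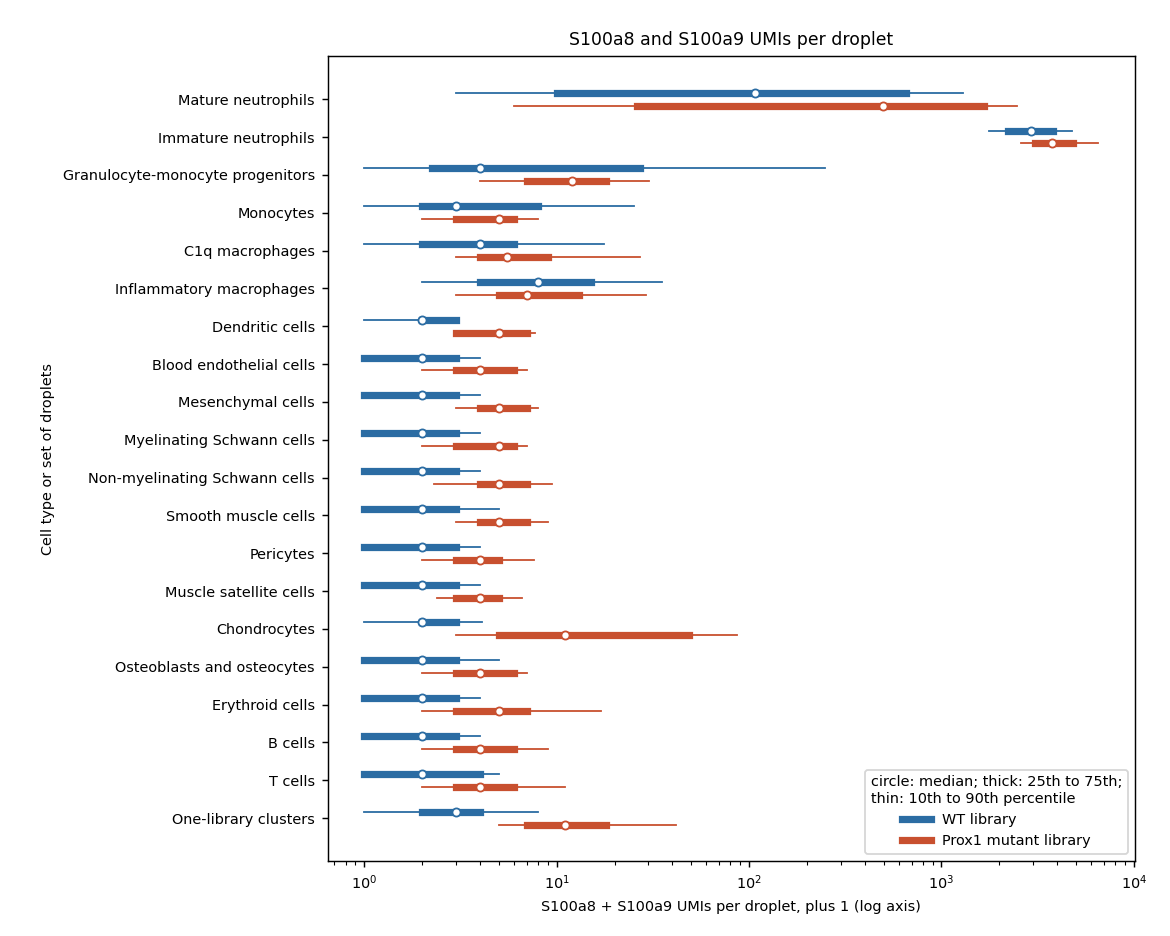
UMIs of S100a8 and S100a9 together per droplet, plus 1 (log axis), by cell type in the WT and the Prox1 mutant library, with circles for medians, thick lines for the central 50% and thin lines for the central 80% of droplets. The droplets of types that should lack both genes centre on 1 in WT and on 3 to 4 in the mutant except for chondrocytes at 10, while immature neutrophils centre on 2931 and 3744, and the one-library set holds the 5 clusters left unnamed for that reason.

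Free RNA in a cell suspension can give UMIs in droplets whose cell does not express a gene, so S100a8 and S100a9 were also counted in 12 cell types that should lack both genes. These were blood endothelial, mesenchymal, smooth muscle, muscle satellite, Schwann (myelinating and non-myelinating), erythroid, B and T cells, pericytes, chondrocytes, and osteoblasts and osteocytes. That these types lack both genes was assumed and not tested, so expression in any of them cannot be told apart from free RNA here. The median droplet held 1 UMI of the pair in all 12 types in WT. In the mutant the median was 3 or 4 in 11 types and 10 in chondrocytes. Other mutant droplets also held about 10: the median was 10 over all 2022 droplets of unnamed clusters, 12 in the largest of these clusters (703 droplets, led by Hba-a2 and Igkc), and 10 in an erythroid cluster of 208 droplets led by Igkc. In WT the 322 droplets of unnamed clusters had a median of 1. The 1041 WT endothelial droplets held on average 1.34 UMIs (1.27 to 1.41) and the 529 mutant ones 3.57 (3.41 to 3.74), and under other clusterings and filters the mutant mean reached up to 15.8. At least 1 UMI of the pair was found in 65.6% to 76.7% of the droplets of a type in WT and in 92.9% to 98.4% in the mutant. A share of cells with a UMI of S100a8 therefore carried little information on which cells express it. Over all kept cells it was 52.5% in WT and 87.8% in the mutant. In endothelial cells it was 40.2% and 77.5%, and 20.6% and 40.7% after each cell had been thinned to 2000 UMIs, while in immature neutrophils it was 100% in each case.

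The means of several of these types rested on a few droplets with 20 or more UMIs of the pair. Such droplets numbered 4 of 534 among WT mesenchymal cells, 3 of 158 among WT smooth muscle cells, 1 of 35 among mutant pericytes and 4 of 121 among mutant B cells. The single mutant pericyte droplet held 97% of the type's UMIs of the pair, and 1 of 24 mutant dendritic droplets held 95.6%. With these droplets left out, the mean per droplet lay between 1.18 and 1.86 in the 12 WT types and between 3.12 and 5.86 in the mutant types. The mutant mean was then higher in all 12 types, by 2.15-fold in pericytes to 3.66-fold in chondrocytes, with a median of 2.79-fold. Mutant chondrocytes stood apart with 44 rich droplets of 113, and mutant erythroid cells held 72 of 815, of which 70 lay in the cluster of 208 droplets named above.

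The median number of UMIs of the pair per droplet did not follow the depth of the droplet, while the WT mean rose with it. When the droplets of the 12 types were split into 4 classes of equal size by total UMIs, the median stayed at 1 in every WT class, whose median depths ran from 2482 to 18177 UMIs. In the mutant it was 4, 4, 3.5 and 4, over median depths from 2398 to 19474. The mean was 1.13, 1.35 and 1.73 in the first 3 WT classes, a smaller step than that of depth. A median of whole counts cannot show a rise of this size. Expressed as CPM the same droplets gave 478, 283, 200 and 1026 in WT and 5067, 1584, 722 and 1193 in the mutant. The rich droplets were spread unevenly over the classes. From the shallowest to the deepest class they numbered 0, 1, 2 and 11 in WT and 83, 28, 10 and 8 in the mutant, where the means of all droplets were 12.3, 9.01, 7.33 and 28.5. Without rich droplets the WT means were 1.13, 1.31, 1.37 and 1.75, and the mutant means were 4.26, 3.77, 3.78 and 4.47.

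**Figure D2:**
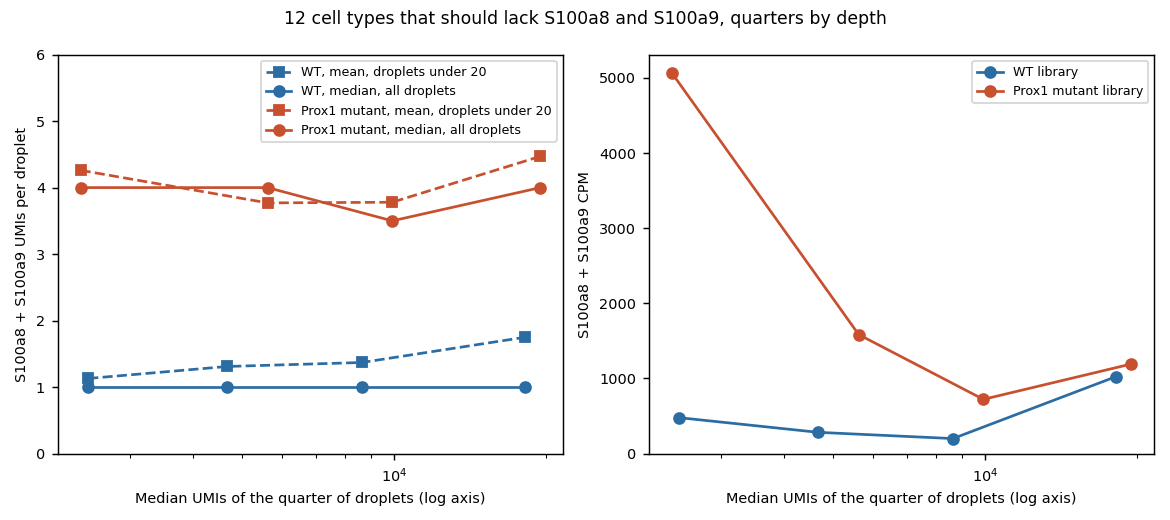
S100a8 and S100a9 UMIs per droplet in 12 cell types that should lack both genes, in 4 classes of droplet depth (total UMIs, log axis) for each library, as median and as mean of droplets under 20 (left) and as CPM (right). The medians stay at 1 in WT and between 3.5 and 4 in the mutant, while the median depth of the classes goes from 2482 to 18177 UMIs in WT and from 2398 to 19474 in the mutant.

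The composition of these counts was set beside that of neutrophils. The ratio of S100a8 to S100a9 lay between 0.50 and 0.900 in the 12 WT types and between 0.648 and 0.945 in the mutant types, against 0.870 and 0.820 in immature neutrophils. Ngp, a granule gene of immature neutrophils, amounted to 0.0759 to 0.351 UMIs per S100a8 UMI in the WT types and 0.0698 to 0.306 in the mutant types. These values lay between those of mature neutrophils (0.0832 and 0.0499) and immature neutrophils (0.417 and 0.308), except that the lowest WT type was below WT mature neutrophils. An unnamed cluster led by Abca13 differed, with 0.410 S100a8 UMIs per S100a9 UMI and 1.38 Ngp UMIs per S100a8 UMI in 85 mutant cells. Where the UMIs in types that should lack the pair came from was not tested.

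Other myeloid types held far fewer UMIs of the pair than neutrophils. The median monocyte held 2 UMIs of the pair in WT and 4 in the mutant, and the median C1q macrophage 3 and 4.5. Inflammatory macrophages, named from Nos2, Mmp12, Spp1 and other genes, had medians of 7 and 6. Within them, the cluster led by Mmp12 had medians of 8 and 10 and the cluster led by Malt1 had medians of 1 and 4, those of most types that should lack the pair. Granulocyte-monocyte progenitors had medians of 3 and 11, and dendritic cells of 1 and 4. In WT the medians of monocytes, progenitors and both macrophage types lay above 1, the median of all 12 types that should lack both genes. In the mutant, monocytes and dendritic cells lay at the 3 or 4 of every such type but chondrocytes. Both mutant macrophage types lay above those values and below the chondrocytes at 10, and the progenitors lay just above the chondrocytes. The S100a8 level was 2579 and 1825 CPM in the progenitors, 1466 and 1788 in C1q macrophages, 1262 and 1693 in inflammatory macrophages and 1123 and 2032 in monocytes. In mutant monocytes 1 cell carried much of it, since 1089 CPM remained without the highest cell. These levels rested in large part on droplets with 20 or more UMIs of the pair, a limit set on the same UMIs. Without such droplets the mean of the pair per droplet went from 50.5 to 3.18 (WT) and from 70.9 to 4.99 (mutant) in C1q macrophages. It went from 70.2 to 6.16 and from 78.0 to 6.34 in inflammatory macrophages. In progenitors it went from 120 to 3.12 and from 52.2 to 9.27, and in monocytes from 28.7 to 3.35 and from 60.6 to 3.55.

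S100b marked Schwann cells in both libraries. Its level in myelinating Schwann cells was 270 CPM (241 to 300, 322 cells) in WT and 291 (251 to 334, 147 cells) in the mutant. Non-myelinating Schwann cells stood at 213 (179 to 252, 51 cells) and 251 CPM (162 to 370, 14 cells). The intervals of these types overlapped in each library, and both lay above every other type. S100b was found in 51.9% of WT and 52.4% of mutant myelinating Schwann cells, and in 38.1% and 36.1% after each cell had been thinned to 2000 UMIs. In blood endothelial cells, which should lack it, the share was 0.768% and 0.378%. The log2 ratio of mutant over WT in myelinating Schwann cells was 0.11 (−0.15 to 0.37), an interval that includes 0. Of the 9 members, S100b had the fewest UMIs, 675 and 553, and myelinating Schwann cells held 48.6% and 35.4% of them.

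Outside the Schwann cells, S100b was found in skeletal and stromal cells. Osteoblasts and osteocytes stood at 29.7 CPM in WT and 51.5 in the mutant, and mesenchymal cells at 10.1 and 18.1. Chondrocytes stood at 20.2 CPM in 30 WT cells and 95.9 CPM in 113 mutant cells, of which 54.7 remained without the highest cell. Chondrocyte droplets were much deeper in WT, where the median was 32460 UMIs, than in the mutant, where it was 3441. Whether these cells were otherwise alike was not tested, so the chondrocyte levels of the libraries are not comparable. In T and B cells S100b was at 0 in both libraries, which allows up to 7.11 and 3.9 CPM in T cells and 3.86 and 3.13 CPM in B cells.

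**Figure D3:**
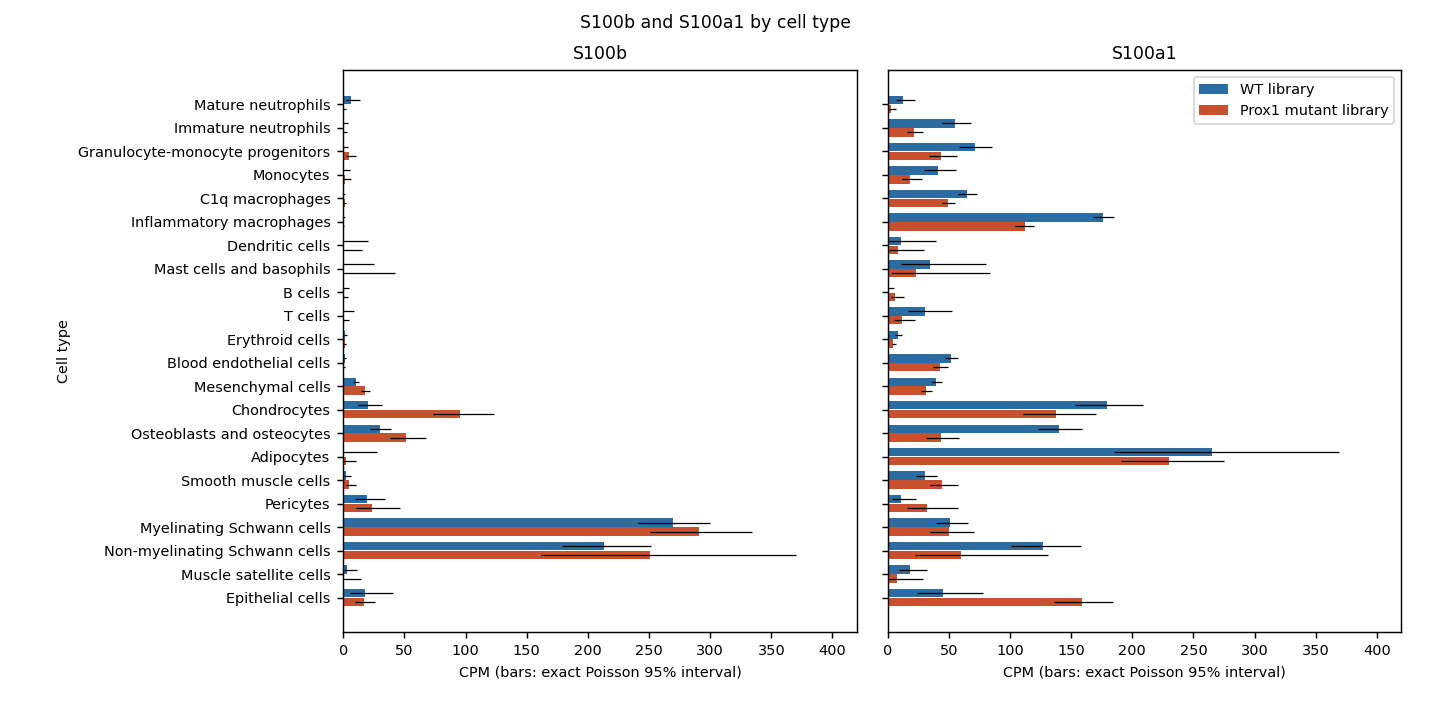
CPM of S100b and S100a1 by cell type in the WT and the mutant library, with 95% counting intervals. S100b is highest in the Schwann cell types, between 213 and 291 CPM, and S100a1 lies at 176 and 112 CPM in inflammatory macrophages.

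S100a6 was abundant in more types than any other member. Among the 16 types with 50 or more cells in the library, 13 were above 500 CPM in each library. Mature neutrophils were highest, at 6058 CPM (WT, 5901 to 6217) and 5189 CPM (mutant, 5073 to 5307), above immature neutrophils at 1468 and 1129. Among types of 50 or more cells in WT, pericytes (3547), mesenchymal cells (2830), monocytes (2661) and myelinating Schwann cells (2227) followed, each apart from the next beyond counting error. In the mutant, mesenchymal cells (3414) followed, and the intervals of the 35 pericytes (2118), myelinating Schwann cells (1926) and monocytes (1914) overlapped each with the next in this order, with monocytes above inflammatory macrophages (1519). Among types of 50 or more cells the lowest levels in WT were those of B cells, 55.3 CPM, and erythroid cells, 128 CPM. In the mutant they were those of erythroid cells, 106 CPM, and osteoblasts and osteocytes, 113 CPM, and B cells stood at 231. Single cells carried some values: without its highest cell the level of the 8 WT epithelial cells went from 3537 to 691 CPM and that of the 6 WT adipocytes from 978 to 110.

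S100a4 was highest in monocytes, T cells, macrophages, mesenchymal cells, granulocyte-monocyte progenitors and myelinating Schwann cells. Monocytes were highest in both libraries, at 937 CPM (877 to 1000) and 731 CPM (682 to 782). T cells followed in WT at 787 CPM, of which 650 remained without the highest cell, and stood at 412 in the mutant. Mesenchymal cells stood at 388 and 519 CPM, C1q macrophages at 399 and 510, and inflammatory macrophages at 315 and 520. Myelinating Schwann cells stood at 305 and 298 CPM and the progenitors at 275 and 332. In neutrophils the gene was low, at 88.4 and 39.5 CPM in mature and 70.5 and 48.6 CPM in immature cells. The share of cells with a UMI was 91.1% and 68.9% in monocytes, and 78.9% and 57.0% after thinning, against 7.30% and 7.94% in endothelial cells, 3.23% in each library after thinning.

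S100a10, the partner of Anxa2, was highest in mesenchymal cells, T cells and progenitors. WT T cells stood at 1211 CPM (1108 to 1321, 48 cells) and mutant T cells at 483 (436 to 535, 90 cells). Mesenchymal cells stood at 987 and 1039 CPM and granulocyte-monocyte progenitors at 864 and 685. Its levels were lowest in smooth muscle cells, 68.2 and 24.1 CPM, and low in neutrophils, at 83.1 and 45.7 CPM in the mature and 70.5 and 35.0 CPM in the immature cells. It was thus low in mature neutrophils, the cells with the most S100a6 and S100a11.

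S100a11, which binds Anxa1, was highest in mature neutrophils, at 2783 CPM (2678 to 2892) and 2650 (2568 to 2735). Immature neutrophils stood at 1243 and 1270 CPM and inflammatory macrophages at 1374 and 724, so that these types changed places between the libraries beyond counting error. Monocytes stood at 971 and 634 CPM and C1q macrophages at 701 and 511. Erythroid cells (57.3 and 37.4 CPM) and myelinating Schwann cells (80.5 and 54.8 CPM) were lowest.

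S100a13 was the most even member, with 6.17-fold between the highest and the lowest type of 50 or more cells in WT and 8.27-fold in the mutant. Among these types, blood endothelial cells were highest in WT at 219 CPM (209 to 231) and stood at 164 (152 to 176) in the mutant. Mesenchymal cells stood at 184 and 211 CPM, and erythroid cells at 35.5 and 31.9. Neighbours in the order of all 22 WT types overlapped in their intervals throughout.

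S100a1 was highest in adipocytes, at 265 CPM in 6 WT cells and 230 CPM in 24 mutant cells. Among types with more cells, chondrocytes stood at 179 CPM in WT and 138 in the mutant, and inflammatory macrophages at 176 (168 to 185) and 112 (104 to 120). The 63 mutant epithelial cells stood at 159 CPM (136 to 184), of which 111 remained without the highest cell, and the 8 WT ones at 45.6. Inflammatory macrophages held 44.2% of all S100a1 UMIs in WT and 30.5% in the mutant, from 7.28% and 5.30% of the cells. Osteoblasts and osteocytes stood at 140 CPM in WT and 43.3 in the mutant. In WT B cells S100a1 was at 0, which allows up to 3.86 CPM, and in mature neutrophils it stood at 12.8 and 2.73 CPM.

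**Figure D4:**
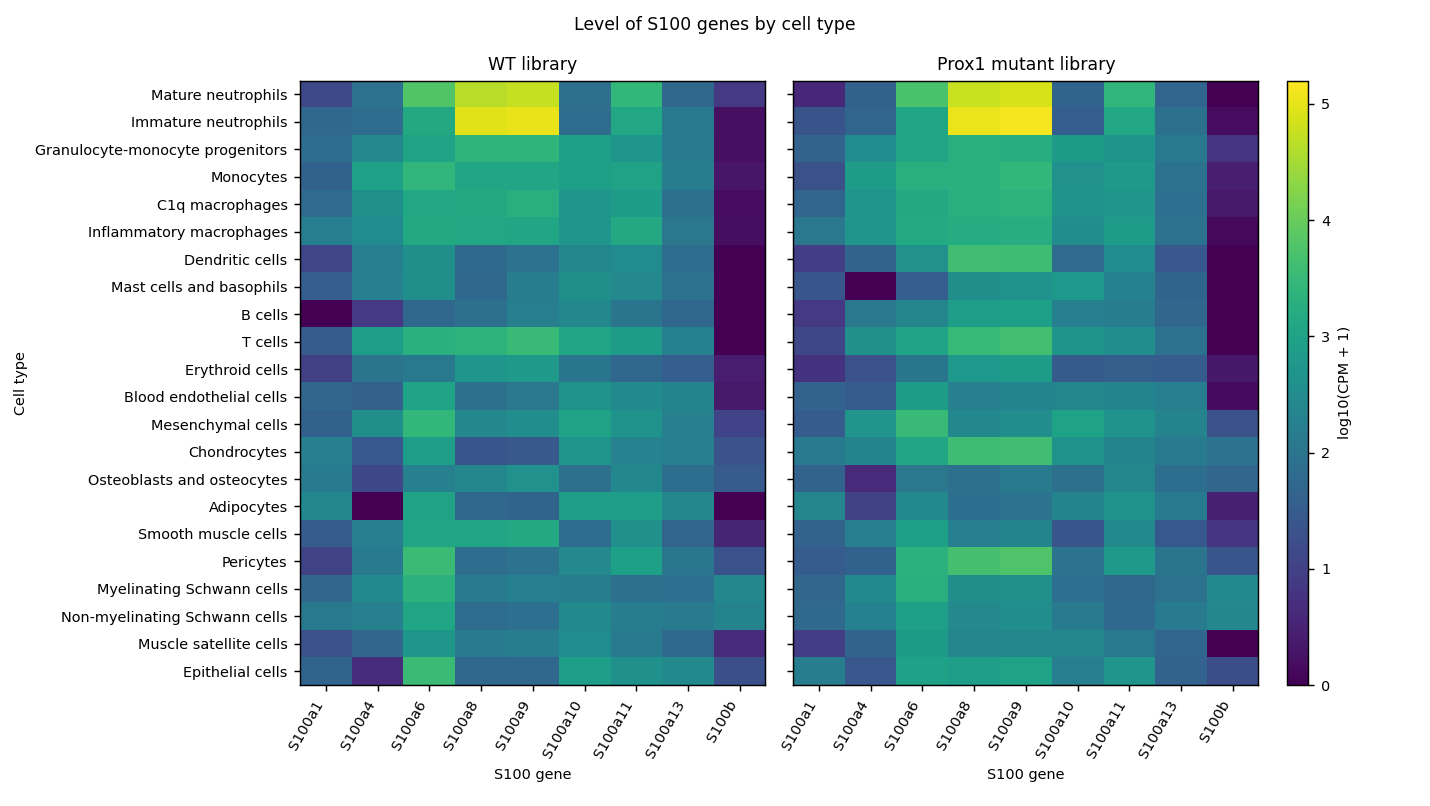
Level of each of the 9 S100 genes (colour, log10 of CPM plus 1) in the named cell types of the WT and the mutant library. S100a8 and S100a9 are highest in neutrophils, S100b in Schwann cells and S100a6 in mature neutrophils, and S100a13 varies least.

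Between the libraries, 13 types had 50 or more cells in each, and 86 pairs of a member and a type had 200 or more UMIs over both. Of these pairs, 15 (17.4%) differed at least 2-fold in CPM, 7 higher and 8 lower in the mutant, and 10 of the 15 were S100a8 or S100a9. Over all genes 3.27% of 51862 pairs differed that much under the same settings. With 200 genes and 20% mitochondrial UMIs as limits for a cell, 31 member pairs passed. The share over all genes was not taken there, and 12433 cells were kept in place of 10109, so this count is not comparable with the 15. With 1 library per genotype, such a difference compares these libraries and not the genotypes. It also covers the makeup of a named type and the background of each library, which cannot be told apart from expression here.

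Of the members counted, none of 4 passed 2-fold in mature neutrophils, none of 6 in immature neutrophils and none of 7 in progenitors. Over all genes 4.70%, 3.06% and 3.29% did. Members with under 200 UMIs over both libraries were not counted. Of these, S100a1 (−2.23) and S100a4 (−1.16) stood past 2-fold in mature neutrophils. S100a1 (−1.34) and S100a10 (−1.01) did in immature neutrophils, and S100b (2.95, on 1 and 7 UMIs) in progenitors. In mature neutrophils the log2 ratio of mutant over WT was 0.39 (0.37 to 0.41) for S100a8 and 0.48 (0.47 to 0.50) for S100a9, placing them at the percentiles 81.4 and 86.3 of all genes counted in that type. Under the other settings tried, the ratios ran from 0.23 to 0.70 and from 0.32 to 0.77. In immature neutrophils the ratios were 0.25 (0.24 to 0.26) and 0.33 (0.32 to 0.34). They leave out the unnamed cluster with neutrophil and C1q macrophage markers (16 WT and 199 mutant cells). That cluster held 90745 and 80905 CPM of the pair, against 203590 and 249434 in the named immature neutrophils. Ratios with it included were not taken, so the direction holds only for the named cells. In progenitors the ratios of S100a8 and S100a9 were −0.50 (−0.57 to −0.43) and −0.50 (−0.58 to −0.43). The progenitors had a median of 21439 UMIs per droplet in WT and 4383 in the mutant, and their median number of UMIs of the pair was higher in the mutant (3 and 11), so this direction depended on the measure. S100a6 was lower in the mutant in both neutrophil types, by −0.22 and −0.38, and the intervals of S100a11 reached 0 in both.

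In monocytes 1 of 7 members passed 2-fold, S100a9 at 1.20 (1.11 to 1.30), where 6.05% of all genes did. The mutant value rested in large part on 1 cell, as its level went from 2784 to 1430 CPM without it, and with likely doublets removed the ratio was −2.62. None of the 8 members counted passed 2-fold in C1q macrophages (2.08% of all genes) or in inflammatory macrophages (3.26%). In inflammatory macrophages S100a4 was higher in the mutant, by 0.72 (0.65 to 0.79), at the percentile 93.0, and S100a11 was lower, by −0.92 (−0.97 to −0.88), at the percentile 1.08. The median of all genes in that type was 0.17. S100a10 (−0.51) and S100a1 (−0.66) were also lower there. These ratios leave out an unnamed cluster led by Nos2, nearest to inflammatory macrophages (11 WT and 261 mutant cells). Ratios with it included were not taken, so the directions hold only for the named cells. Of these, the cluster led by Mmp12 held 265 WT and 206 mutant cells, and that led by Malt1 held 52 and 99. The WT cells were deeper, at medians of 27218 against 17549 UMIs. Whether makeup or depth bears on the ratios was not tested.

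In B cells 3 of 5 members passed 2-fold, S100a6 at 2.06, S100a8 at 3.30 and S100a9 at 2.38, where 11.6% of all genes did. A single mutant B cell droplet held 531 S100a8 UMIs, and without droplets of 20 or more UMIs of the pair the ratios of S100a8 and S100a9 were 1.32 and 0.75, while S100a6 had under 200 UMIs left and was not counted. The libraries also differed in the B cells they held: the cluster led by Vpreb3 held 135 WT and 78 mutant cells, and the cluster led by Bank1 held 12 and 43. In erythroid cells S100a4 (−2.45) and S100a10 (−1.85) passed 2-fold among 7 members, against 3.80% of all genes. The level of S100a4 there was 100 CPM in WT, 69.5 without the highest cell, and 18.4 CPM in the mutant. With cells chosen by marker UMIs and no clusters, both ratios were above 0 (0.97 and 0.50). S100a8 and S100a9 in erythroid cells went from 0.19 and 0.18 to 1.68 and 1.69 without the rich droplets.

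In blood endothelial cells only S100a8 passed 2-fold among 8 members, at 1.14 (0.99 to 1.30), where 1.91% of all genes did, and S100a9 stood at 0.98 (0.85 to 1.12). In mesenchymal cells none of 8 passed (1.60% of all genes). S100a6 was higher in the mutant there, by 0.27 (0.24 to 0.30), and S100a4 by 0.42 (0.34 to 0.49). Without the rich droplets, S100a8 and S100a9 in mesenchymal cells went from 0.01 and −0.02 to 1.40 and 1.19. In osteoblasts and osteocytes 3 of 7 members passed, S100a1 at −1.70 (−2.20 to −1.22), S100a8 at −1.63 and S100a9 at −1.72, where 7.31% of all genes did. Only 2 WT droplets there held 20 or more UMIs of the pair.

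In smooth muscle cells S100a8 (−2.69) and S100a9 (−2.61) passed 2-fold among 5 members, where 1.68% of all genes did. The direction rested on 3 WT droplets, as the ratios were 1.38 and 1.36 without droplets of 20 or more UMIs. In osteoblasts and osteocytes the ratio of S100a9 likewise went from −1.72 to 0.90. In myelinating Schwann cells S100a8 (1.44), S100a9 (1.21) and S100a10 (−1.0) passed among 6 members, against 1.69% of all genes, with no droplet of 20 or more UMIs of the pair in either library.

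Across the types, S100a8 and S100a9 were higher in the mutant in 10 and 9 of 13 types. Without the rich droplets of types other than myeloid ones, they were higher in 11 of 12 and 12 of 13, and lower only in progenitors. The progenitors kept their rich droplets, 18 of 66 in WT and 19 of 97 in the mutant. Without those, their mean UMIs of the pair per droplet were 3.12 in WT and 9.27 in the mutant. The other myeloid types kept theirs too. Without them the means were 3.35 and 3.55 in monocytes, 3.18 and 4.99 in C1q macrophages and 6.16 and 6.34 in inflammatory macrophages. The median of inflammatory macrophages was 7 in WT and 6 in the mutant, so the direction there depended on the measure. The limit for a rich droplet was set on the same UMIs that are compared. Most of the other members had lower values in the mutant in more types than not. S100a10 was lower in 9 of 10 types, S100a11 in 10 of 12, S100a1 in 5 of 5 and S100a13 in 7 of 9. S100a6 was lower in 8 of 13 and S100a4 in 6 of 10. All types of a library share its preparation, and all members of a type share its total of UMIs, so these counts are not independent of each other. The share of all genes that were higher or lower in each type was not taken, so these counts have no such share beside them. The median log2 ratio over all genes ran from −0.09 in B cells to 0.18 in erythroid cells.

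**Figure D5:**
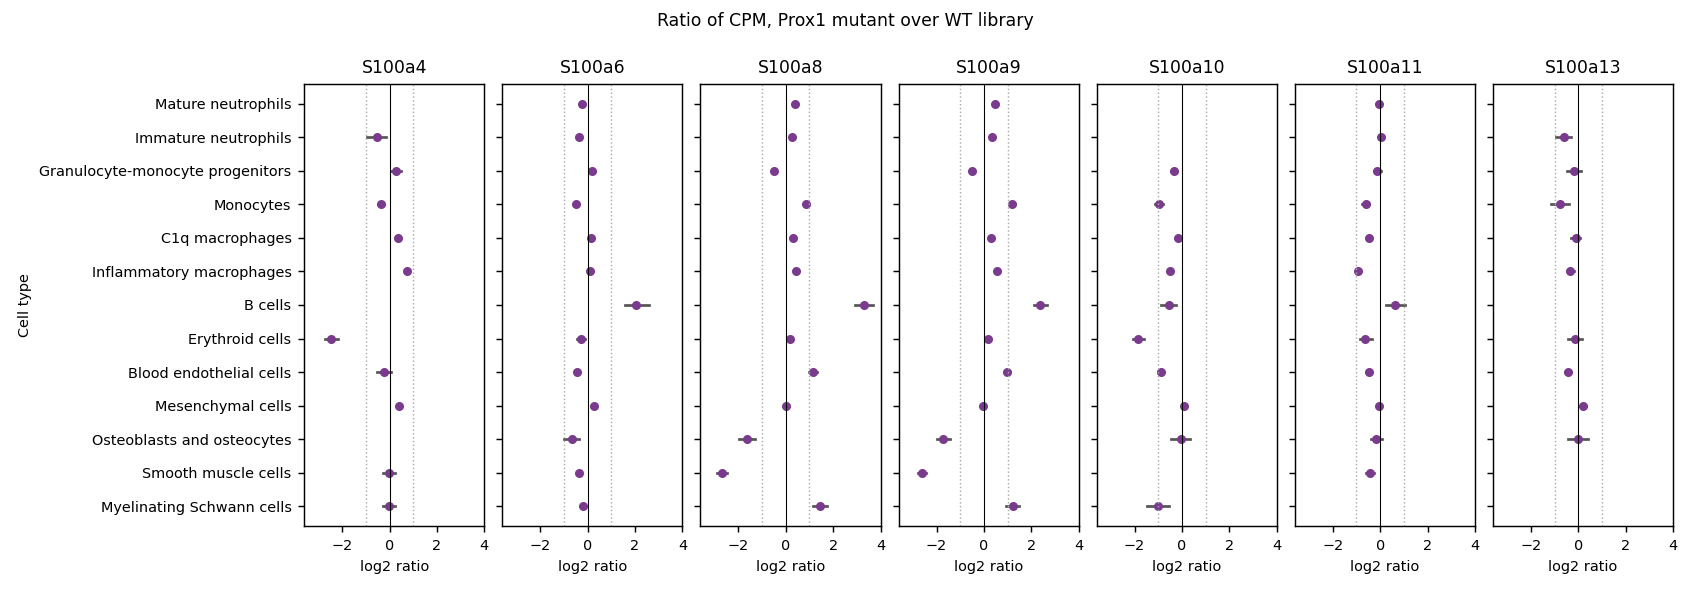
Log2 ratio of CPM in the mutant over the WT library for 7 S100 genes (without S100a1 and S100b) in each cell type counted, with 95% counting intervals and lines at 2-fold in either direction. S100a8 and S100a9 range from −2.69 to 3.30 and −2.61 to 2.38, while S100a11 ranges from −0.92 to 0.64 and S100a13 from −0.78 to 0.20.

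Genes that work with the S100 proteins, or share their cells, were read from 4 lists. The first list held 7 other S100 genes and left out S100a2, which was not read. Of the 7 listed, S100a16 alone was counted in any pair. It stood at 193 and 157 CPM in endothelial and 155 and 141 CPM in mesenchymal cells, and neither pair passed 2-fold. S100z had 0 UMIs in all named types, S100g had 5 and S100a3 had 32. Of 41 pairs of the annexin and Ahnak partners, 0 passed 2-fold upward and 1 downward, Anxa2 in erythroid cells at −1.03. Over all genes 3.27% of 51862 pairs passed in either direction. Anxa1, the partner of S100a11, was highest in immature neutrophils, at 2862 and 2311 CPM. Anxa2 stood at 646 and 721 CPM in mesenchymal cells, which were also high in its partner S100a10, but also at 693 and 655 CPM in mature neutrophils, which were low in S100a10.

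Of the receptors of secreted S100 proteins, Ager had only 36 UMIs in the named types of both libraries together, with no type above 4.83 CPM among those of 50 or more cells. Tlr4 was highest in mature neutrophils, at 338 CPM (WT) and 127 CPM (mutant), a log2 ratio of −1.41. Cd36, which binds fatty acids, was highest in endothelial cells (1894 and 1232 CPM). Of 56 receptor pairs, 4 passed 2-fold upward, Alcam in progenitors (1.32), monocytes (1.07) and B cells (2.84) and Cd36 in monocytes (2.88), and 2 passed downward, Tlr4 in mature neutrophils and Emb in erythroid cells (−3.10). Of 68 pairs of neutrophil cytosol and granule genes, 7 were past 2-fold upward and 11 downward, so the set had no common direction. Beside the counts of both lists, 3.27% of 51862 pairs passed over all genes.

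The genes whose pattern over types was most like that of each member were taken by Pearson correlation of log2(CPM + 5) over 26 points, 13 types in each library, among 8570 genes. For S100a8 these were S100a9 (r = 1.0), Pglyrp1 and Wfdc21 (0.97 each), and for S100b Mlip (0.98), Nfasc and Tmem117 (0.97 each). The other members had weaker likeness. S100a11 was most like Pkm, Zyx and Anxa11 (0.91 each), an annexin that is also among its partners' list, and S100a1 most like Tmem205 (0.87), Anxa5 (0.80) and Eef1akmt1 (0.78). S100a6 came closest to Neat1 (0.86), Flot1 and Sat1 (0.84 each), S100a4 to Mfsd7a (0.81), Il6ra (0.77) and Rnh1 (0.75), S100a10 to Tpt1, Tmem173 (0.83 each) and Psmb10 (0.82), and S100a13 to Pde8a (0.80), Myl12a (0.78) and Xbp1 (0.77). Among the members themselves S100a11 and S100a8 had r = 0.71, S100a10 and S100a13 0.74 and S100a4 and S100a6 0.66. The points share libraries and depths, and these values are a description. Some points are types that should lack S100a8 and S100a9, where the source of their UMIs was not tested. The values for this pair therefore do not describe expression alone.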

How the data were processed

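Single-cell suspensions of the TMJ were sequenced on the 10x Genomics 3′ platform, 1 library per genotype. The labels and the study's methods name different versions of the kit and different digestion enzymes, and whether intronic reads were counted is not given in the sources used here. The values used are raw UMI counts per gene and barcode, which the authors made with Cell Ranger 7.0.1 on mm10 (per the submitters' processing notes) and deposited without normalization for the barcodes called as cells. No deposited column of per-sample values was left out, and no fold changes or p-values of the authors were used. Where the build is named for positions it is GRCm38, whose gene models fitted the deposited gene IDs, and promoter sequences are from RefSeq on GRCm38.p6.

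Following the methods of the study, barcodes were kept where 500 or more genes were detected and mitochondrial UMIs made up less than 10%. Libraries were normalized with sctransform 0.4.2, integrated by anchors over 3000 features and, with Seurat 5.3.0 (R 4.3.3), clustered at a resolution of 1.5 over 200 principal components. Every gene named S100 was removed from the integration features. The original form of the sctransform model was chosen here. A cluster was named from marker lists where at least 3 markers were raised. For this, a marker's CPM over the cluster had to be at least 2-fold that over all other kept cells, with a constant added to both. At least 10% of the cluster's cells also had to hold a UMI of it. A cluster stayed unnamed where markers of another type led. A cluster of low depth was left without a name if no marker of its nearest type was among the leading genes. The name was also withheld where a large part of the markers of a second lineage were raised, as for neutrophil and C1q macrophage markers together. The last rule left a cluster unnamed where under 5% of its cells came from 1 of the libraries. The last rule and an exception for granulocyte-monocyte progenitors were chosen after the clusters had been seen. Scrublet (scanpy 1.11.5, Python 3.11.15) called 0 doublets with its automatic threshold in either library, so doublets were left in, and the 239 WT and 462 mutant barcodes with the highest scores were removed only as an alternative, which left 9606 of 10109 cells.

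CPM is the UMIs of a gene per 1000000 UMIs of the cells of a type, with exact Poisson intervals. Log2 ratios of mutant over WT carry exact binomial intervals on the pair of counts, and shares carry Clopper-Pearson intervals (scipy 1.17.1, numpy 2.4.6), all at 95% and for counting error only. A gene at 0 UMIs was given the limit that 3 UMIs would give. A pair of gene and type was counted with 50 or more cells in each library and 200 or more UMIs over both, and was called at 2-fold or more. To compare shares across depths, 2000 UMIs were drawn from every cell, and cells with fewer were not used. The ratios were run on simulated Poisson counts with known changes, and the naming on simulated types whose own markers were raised. Neither simulation held rich droplets, doublets or mixed clusters, so these runs cannot show errors from those. The genes named are the 9 members, the genes of 4 lists (other S100 genes without S100a2, annexins and Ahnak, receptors, neutrophil genes) and the 3 genes most like each member. The members and lists were chosen with earlier results of these data known. Genes named besides these lead a cluster or a background count.

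Alternatives changed 1 choice at a time, except that both cell limits were moved together: S100 genes kept as features, no integration, log-normalization with 2000 variable genes, looser cell limits (200 genes, 20% mitochondrial UMIs), stricter ones (1000 genes, 5%), 30 principal components, resolution 0.5, doublets removed, haemoglobin genes and the S100a8 and S100a9 pair left out of the total, cells chosen by 5 or more marker UMIs without clusters, a minimum of 50 UMIs, thinning to 1000 UMIs and medians in place of means. Histology, imaging and behaviour are not analysed here.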

Additional observations from a re-analysis of the deposited data

Results flagged for a closer look

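Barcodes that the comparisons left out because fewer than 500 genes were detected also held S100a8 and S100a9. The 944 such WT barcodes held 2291 UMIs of the pair, on average 2.43 per droplet (2.33 to 2.53) with a median of 1, and the 1690 mutant barcodes held 7131, on average 4.22 (4.12 to 4.32) with a median of 3. This drew attention as a signal in data outside the comparisons, above the limit that a count of 0 allows. The medians were those of droplets of types that should lack both genes, 1 in all 12 WT types and 3 or 4 in 11 of 12 mutant types, and lay below the median of 10 in the unnamed mutant clusters. The source of these UMIs was not tested.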

How the results depend on the processing

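In mature neutrophils the log2 ratio was above 0 under every setting. For S100a8, 0.39 as reported, it was 0.70 with the S100 genes kept, 0.56 without integration, 0.57 with log-normalization, 0.54 and 0.58 with looser and stricter cell limits, 0.68 with 30 principal components, 0.58 at resolution 0.5, 0.52 without likely doublets, 0.46 with the other total, and 0.23 and 0.43 in the Retnlg-led and the other cluster alone. For S100a9, 0.48 as reported, the same settings gave 0.77, 0.62, 0.67, 0.61, 0.68, 0.74, 0.66, 0.60, 0.56, 0.32 and 0.63, and cells chosen by marker UMIs gave 0.38. S100a4 in inflammatory macrophages (0.72) was 0.59 with the S100 genes kept, 0.54 with log-normalization, 0.65 and 0.43 with looser and stricter limits, 0.63 with 30 components, 0.55 at resolution 0.5, 0.64 without doublets and 0.55 by marker UMIs. S100a6 in mesenchymal cells (0.27) was 0.18 with looser limits, 0.23 with 30 components and 0.35 by marker UMIs. S100b in myelinating Schwann cells ran from −0.03 to 0.16, each value within its counting interval. The share of these cells with S100b at 1000 UMIs was 22.2% in WT and 16.8% in the mutant.

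The endothelial mean of the pair in WT (1.34) was 1.47 with log-normalization, 1.43 with stricter limits and 1 as a median. In the mutant (3.57) it was 4.25 with the S100 genes kept, 15.8 without integration, 4.23 with log-normalization, 12.2 with stricter limits, 10.8 at resolution 0.5, 6.84 without doublets and 3 as a median. The count of 15 pairs past 2-fold became 31 with looser limits and 24 with 30 components, and was 15 to 22 otherwise. The share over all genes was taken only under the reported settings, so these counts have no such share beside them. The cells and types named also differed between settings, so the counts are not directly comparable.

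Of 137 values of the 15 pairs under alternatives, 118 kept their direction. Of the 137, 75 lay within the counting interval of the reported value, 43 kept the direction but lay outside it, and 19 were reversed. Pairs not counted under a setting gave no value there. S100a9 in monocytes turned to −2.62 without doublets. In erythroid cells chosen by marker UMIs S100a4 was 0.97 and S100a10 0.50. In osteoblasts and osteocytes S100a8 was 0.24 with the S100 genes kept, 1.43 with log-normalization and 0.01 without doublets, and S100a9 was 0.86 with log-normalization, 1.89 by marker UMIs and 0.90 without rich droplets. In smooth muscle cells S100a8 and S100a9 were 0.22 and 0.29 with log-normalization, 1.65 and 1.51 with stricter limits, 0.27 and 0.33 at resolution 0.5, 0.88 and 0.85 without doublets, and 1.38 and 1.36 without rich droplets. The cause was not tested. Rich droplets are defined by the same UMIs that are compared, so leaving them out is no test of a cause. The single clusters and the removal of rich droplets were chosen after seeing the data.

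No paired analysis was possible because each genotype had 1 library. The depth limits S100b and S100a1 most: with 675 and 553 UMIs of S100b in all, 1 type was compared. Counting intervals leave out variation between mice, preparation and capture. Types differed in depth and makeup between the libraries, and 35.1% of the mutant cells had no name.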
